A study of Homo sapiens with 8 samples.

Results

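The 6 genes are MEF2A, MEF2C, MEF2D, TBX2, TBX3 and SOX8, which encode transcription factors of muscle development and of muscle-like tumours. Described here are the peaks of dimethylated lysine 4 of histone H3 (H3K4me2) that overlap their intervals in the hg19 build, each widened by 20 kb. Of 280986 peaks in 6 deposited lists, 175 belong to these loci: 29 of 50587 in siLSD1 replicate 1, 33 of 49611 in siLSD1 replicate 2, 20 of 33878 in siCtrl replicate 1, 31 of 44831 in siCtrl replicate 2, 35 of 56860 in the pooled siLSD1 list and 27 of 45219 in the pooled siCtrl list. The study sequenced chromatin pulled down with an antibody to H3K4me2 (ChIP-seq) from RD cells, an established line from an embryonal rhabdomyosarcoma, at passages 10 to 15. Treated cells received a small interfering RNA (siRNA) against LSD1, the histone demethylase encoded by KDM1A, and the control cells a control siRNA. The siRNA against LSD1 was 1 construct (Silencer Select s618), and both groups were transfected with Lipofectamine RNAiMAX. In both, the medium was changed at 8 hours and cells were collected at 96 hours. Each siRNA had 2 ChIP libraries, described by the submitters as biological replicates, while the 4 input libraries were not analysed here. No measure of LSD1 itself is in these data, so the depth of the knockdown is unknown here.

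H3K4me2 lies over active and poised promoters and over enhancers, and LSD1 is an enzyme that takes off this methylation. MEF2 proteins bind an A/T-rich site, activate muscle genes together with the MyoD family, and are held in check by class IIa histone deacetylases. TBX2 and TBX3 are closely related T-box factors that mostly repress, among others, genes of cell cycle arrest, and TBX2 has been described as restraining muscle differentiation in rhabdomyosarcoma. SOX8 is a SoxE factor, related to SOX9 and SOX10, which marks satellite cells and restrains muscle differentiation in the mouse.

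The RefSeq promoter table (build GRCh38.p14) matched 3 of the 6 genes, MEF2A, MEF2C and MEF2D, and not TBX2, TBX3 and SOX8. It lists 11 start windows for the 3, with 3 for MEF2A, 7 for MEF2C and 1 for MEF2D, and those printed show the sequence at starts near marked regions that the results describe. Each sequence below holds the 250 bases before 1 start, read 5′ to 3′ along the gene's strand, and is named by the distance in kb of that start from the gene's 5′ end in the RefSeq gene table, so that the MEF2D window lies inside the gene. Capitals mark a MEF2 site, a T-box core site (GGTGTGA) or a SOX core (ACAAT or ATTGT) on either strand. The MEF2A window with a MEF2 site 14 bases before the start (chr15:99565734-99565983) comes first, then the first MEF2C start (chr5:88904106-88904355), the CpG-rich internal start of MEF2C (chr5:88883185-88883434), the internal MEF2C start with a MEF2 site (chr5:88824345-88824594), the farthest internal MEF2C start (chr5:88785512-88785761) and the MEF2D start (chr1:156490688-156490937).
MEF2A at 0.6 kb: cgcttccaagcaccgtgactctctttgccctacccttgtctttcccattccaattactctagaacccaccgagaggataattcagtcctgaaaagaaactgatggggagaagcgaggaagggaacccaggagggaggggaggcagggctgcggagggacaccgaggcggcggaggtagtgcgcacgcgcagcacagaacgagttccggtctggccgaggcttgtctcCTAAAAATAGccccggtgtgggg
MEF2C at 0.0 kb: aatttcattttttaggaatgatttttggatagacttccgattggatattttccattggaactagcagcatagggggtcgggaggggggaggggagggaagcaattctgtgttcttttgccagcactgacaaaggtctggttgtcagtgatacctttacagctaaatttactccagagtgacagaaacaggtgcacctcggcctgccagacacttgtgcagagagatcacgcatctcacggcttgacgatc
MEF2C at 20.9 kb: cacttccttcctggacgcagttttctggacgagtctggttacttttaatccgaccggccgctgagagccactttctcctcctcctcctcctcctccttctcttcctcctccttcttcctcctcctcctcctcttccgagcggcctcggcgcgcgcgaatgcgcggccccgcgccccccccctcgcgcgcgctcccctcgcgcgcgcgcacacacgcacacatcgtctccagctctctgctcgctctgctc
MEF2C at 79.8 kb: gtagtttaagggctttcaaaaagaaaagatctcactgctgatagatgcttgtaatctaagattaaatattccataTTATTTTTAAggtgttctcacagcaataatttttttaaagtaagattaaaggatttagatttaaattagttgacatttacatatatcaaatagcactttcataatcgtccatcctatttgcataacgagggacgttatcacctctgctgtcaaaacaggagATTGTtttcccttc
MEF2C at 118.6 kb: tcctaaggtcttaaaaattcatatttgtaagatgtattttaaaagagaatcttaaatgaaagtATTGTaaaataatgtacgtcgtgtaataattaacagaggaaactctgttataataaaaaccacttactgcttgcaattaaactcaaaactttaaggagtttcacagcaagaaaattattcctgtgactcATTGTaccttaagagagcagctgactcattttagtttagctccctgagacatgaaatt
MEF2D at 10.1 kb: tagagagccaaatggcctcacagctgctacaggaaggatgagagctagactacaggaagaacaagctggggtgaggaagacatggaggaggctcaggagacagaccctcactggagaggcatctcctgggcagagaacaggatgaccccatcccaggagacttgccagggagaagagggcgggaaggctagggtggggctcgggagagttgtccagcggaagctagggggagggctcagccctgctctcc

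A MEF2 site was found in 2.80% of 35114 windows of this length in the RefSeq table, a SOX core in 24.6% and a T-box core site in 2.76%. Among the 11 windows of the MEF2 genes, MEF2 sites stood 14 bases before the MEF2A start at 0.6 kb and 166 bases before the MEF2C start at 79.8 kb, and no window held the T-box core site. SOX cores stood in the MEF2A window at 0.0 kb and in the MEF2C windows at 76.9, 79.8, 80.2 and 118.6 kb. The E-box (CANNTG), which MyoD-family factors bind and which 61.8% of all windows held, can overlap a SOX core, and the window of the first MEF2C start held 2 E-boxes and no SOX core. CpG dinucleotides numbered 15 in the printed MEF2A window, 6 at the first MEF2C start, 28 at the MEF2C start at 20.9 kb, 3 at 79.8 kb, 2 at 118.6 kb and 3 in the MEF2D window, against a median of 11 over all windows. The MEF2A windows not printed, at 0.0 and 1.1 kb, held 36 and 27. A match to these letters is a description of the sequence and shows no binding.

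The 4 libraries differed in how much they marked in all. Peaks covered 96.9 and 104.0 Mb in siLSD1 replicates 1 and 2, against 70.1 and 94.1 Mb in siCtrl replicates 1 and 2, a ratio of means of 1.23. The lists give no read depth, so depth and enrichment behind these totals are unknown, and siCtrl replicate 1 is the shortest list. The 6 loci together held 81.68 and 93.63 kb under peaks in the siLSD1 libraries, against 77.74 and 93.91 kb in the siCtrl libraries. Their ratio of means was 1.02, with groups that overlapped (two-sided exact permutation test, p = 1.0, where 2 libraries against 2 cannot go below 0.333). Chromatin of all cells in a culture is mixed in a library, so a change in fewer cells and a weaker change in every cell cannot be told apart.

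Density of the mark differed between the loci far more than between the siRNAs. SOX8 had 46.1% of its widened locus under peaks after siLSD1, against 47.6% after siCtrl. MEF2D followed with 25.7% after siLSD1 and 26.9% after siCtrl, and TBX2 with 21.7% after siLSD1 and 25.4% after siCtrl, so that these neighbours in the order lie close together in the siCtrl libraries. TBX3 had 13.0% after siLSD1 and 13.6% after siCtrl. The long MEF2A locus had 8.29% after siLSD1 and 6.07% after siCtrl, and the MEF2C locus, with 227 kb the longest, had 5.59% after siLSD1 and 4.99% after siCtrl. These shares depend on the size of the widened locus, which is 46 kb at SOX8. In mean kb after siLSD1, MEF2A (15.8) and MEF2C (12.7) had more under peaks than TBX2 (10.9). After siCtrl they had less (11.6 and 11.3, against 12.7). The genome as a whole had 3.19% and 3.44% under peaks in the siLSD1 libraries, against 2.31% and 3.10% in the siCtrl libraries.

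**Figure D1:**
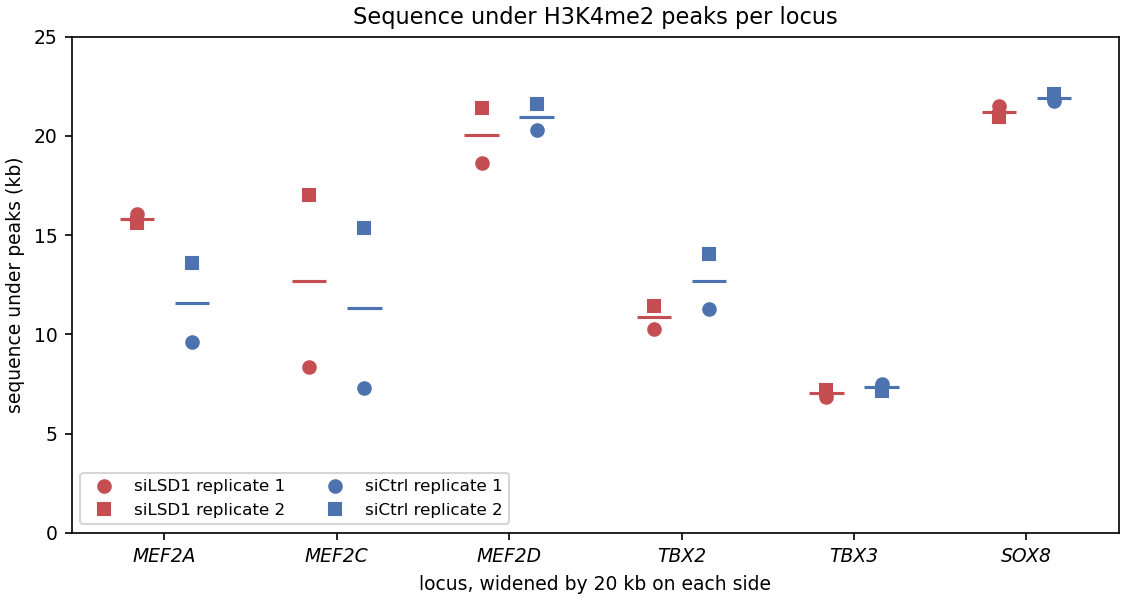
Sequence under H3K4me2 peaks (kb, vertical axis) in each widened locus, with siLSD1 left of siCtrl, a circle for replicate 1, a square for replicate 2 and a line at the mean of 2 libraries. MEF2A lies higher in both siLSD1 than in both siCtrl libraries, SOX8 slightly lower, and in MEF2C the replicates of 1 siRNA differ by more than the siRNAs do.

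Wherever peaks of different libraries overlapped, even by 1 bp, they were joined into 1 region, and 36 such regions lie in the 6 loci. All 4 libraries marked 18 of them, or 50%, against a background of 45.2% of 58952 regions genome-wide. Only 1 region was gained, that is, listed in both siLSD1 libraries and in neither siCtrl library, where 6.97% of all regions were gained. None was lost in the reverse sense, where 1.04% of all regions were. The MEF2 loci held 26 regions, of which 9 were common to all libraries, while the T-box and SOX8 loci held 10, of which 9 were common. The regions of TBX2 (3 of 3) and TBX3 (2 of 2) were marked in every library, and those of SOX8 in 4 of 5 cases.

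**Figure D2:**
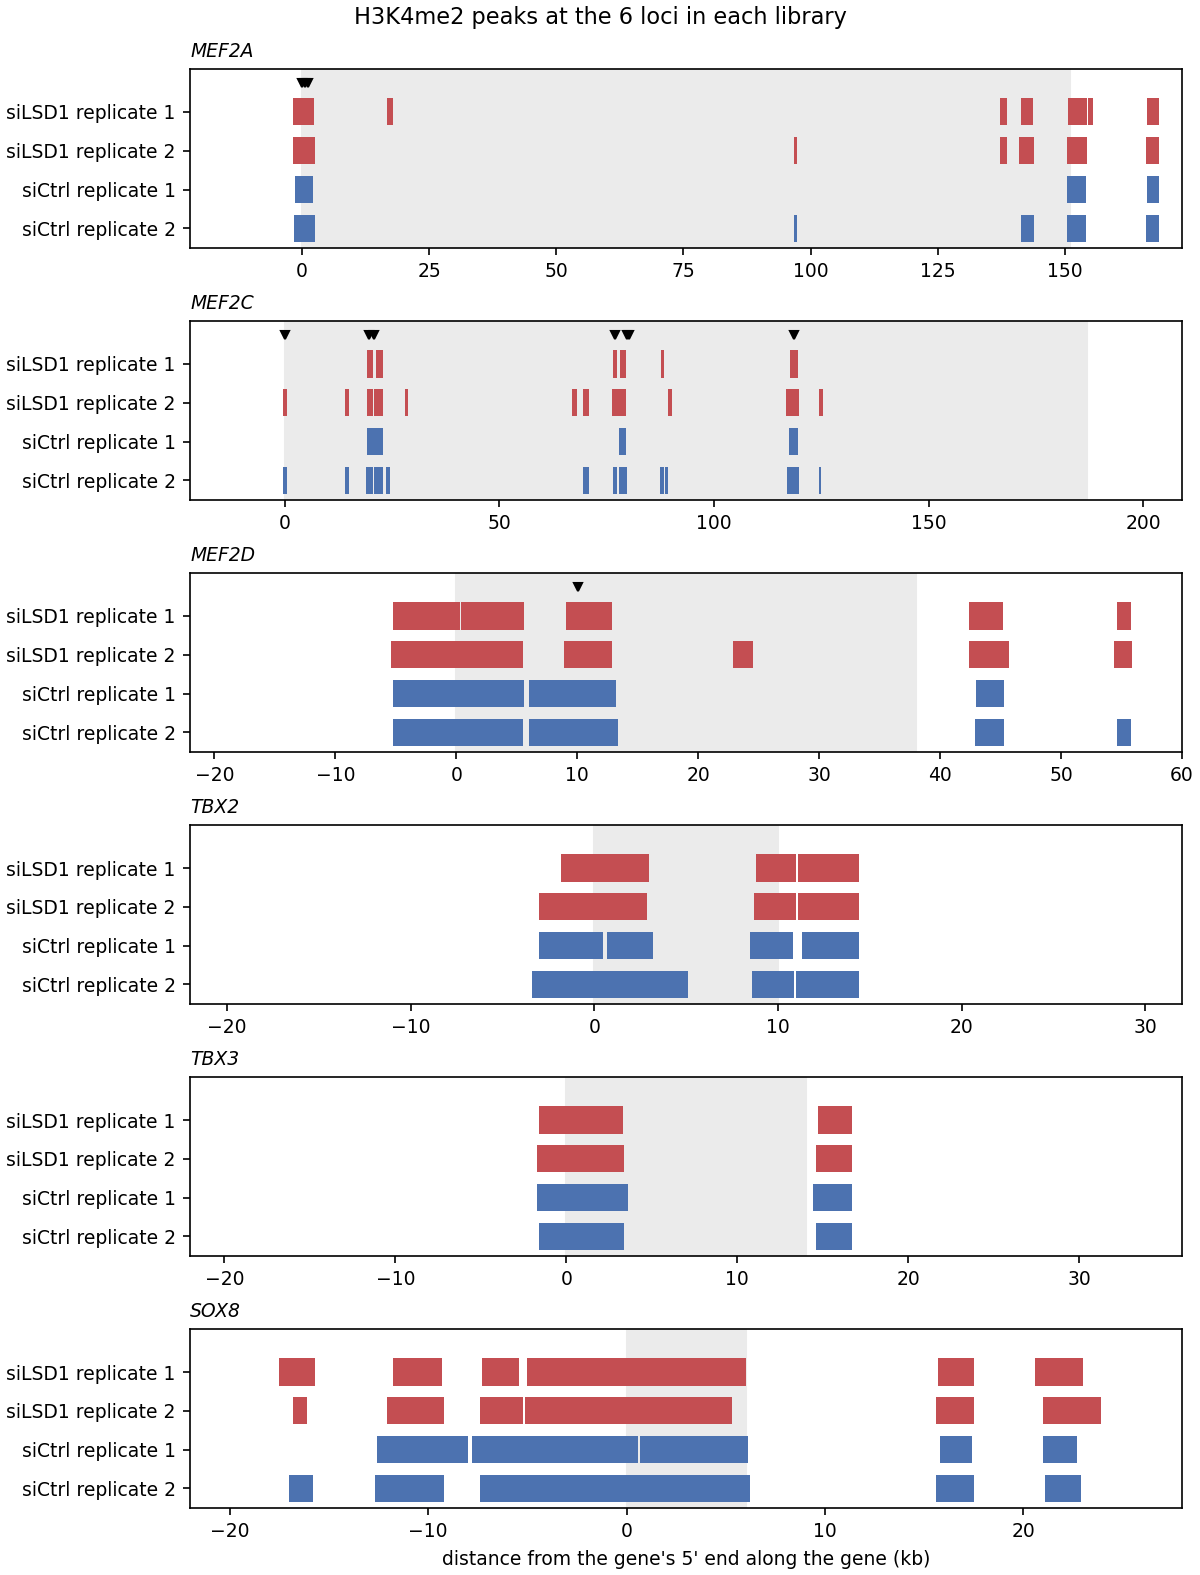
Peaks of each library (bars) along the 6 loci, by distance in kb from the gene's 5′ end in the direction of transcription, with the siLSD1 rows above the siCtrl rows, the gene interval in grey and triangles at RefSeq start positions (GRCh38 distances, MEF2 genes only). The regions of TBX2 and TBX3 are marked in all 4 libraries, MEF2C has peaks that appear in replicates 2 only, and the region at 6.0 to 13.4 kb of MEF2D is shorter in both siLSD1 libraries.

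MEF2A, a widely expressed MEF2 gene at 15q26.3, had more sequence under peaks in both siLSD1 libraries than in either siCtrl library. The genome as a whole did so too, with a ratio of means of 1.23. The MEF2A locus had 16.07 and 15.6 kb under peaks in the siLSD1 libraries, against 9.604 and 13.59 kb in the siCtrl libraries. Both siLSD1 values lie above both siCtrl values, with means of 15.8 ± 0.332 kb after siLSD1 and 11.6 ± 2.82 kb after siCtrl (SD, n = 2 each). The difference of 4.24 kb, a ratio of 1.37, gave p = 0.333 in a two-sided exact permutation test, the smallest p this design allows, and an adjusted p of 0.667 over the 6 loci. It was 2.24 kb without siCtrl replicate 1 and 1.55 kb with each library scaled to the same covered length. It was 1.86 kb with the same number of top-scoring peaks from each list and 0.502 kb with the upper 50% by score, where the groups overlapped (exact permutation p = 0.667 for both).

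The extra sequence of MEF2A lies mostly far inside the gene. The gained region, chr15:100243252-100244616, sits 137.3 to 138.6 kb from the 5′ end and measured 1.36 and 1.27 kb in the siLSD1 libraries, with no peak in either siCtrl library. Its peaks ranked low, at percentiles 23.8 and 15.3 of the scores within their own siLSD1 lists, and the pooled siCtrl list does hold a peak there, with a score of 79.54, while the pooled siLSD1 list gives it 142.99. A neighbouring region, chr15:100246926-100249976, measured 2.30 and 2.97 kb in the siLSD1 libraries, against 0 and 2.56 kb in the siCtrl libraries. Only siCtrl replicate 1, the shortest list, lacks it. A region at 16.6 to 17.8 kb was listed in siLSD1 replicate 1 alone, at 1.25 kb.

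At the 5′ end of MEF2A the mark was a little broader after siLSD1. The region chr15:100104151-100108567 measured 4.20 and 4.30 kb in the siLSD1 libraries, against 3.50 and 3.97 kb in the siCtrl libraries. Both siLSD1 values exceed both siCtrl values, by 0.516 kb on average. Of 26653 common regions of the genome, 3340 were broader in both siLSD1 libraries by at least this much, this one included. Within 2 kb of the 5′ end, 3.85 and 3.737 kb were covered in the siLSD1 libraries, against 3.417 and 3.511 kb in the siCtrl libraries (exact permutation p = 0.333, adjusted p = 1.0). The RefSeq starts of MEF2A at 0.0, 0.6 and 1.1 kb, among them the printed window with the MEF2 site, fall within the distances that this region spans. With each library scaled to the same covered length in total, both differences turn negative, to -0.344 kb for the region and -0.48 kb for the 4-kb window. Region and window were mostly covered in every library, so the scaled values carry the difference in library totals. The 2 other common regions of MEF2A, at 150.4 to 154.3 kb over the 3′ end and at 166.0 to 168.6 kb beyond it, differed by -0.0520 and 0.0380 kb, less than the spread between replicates. LYSMD4 overlaps MEF2A in the gene table, and the regions near the 3′ end were not assigned to either gene.

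MEF2C, needed for heart and skeletal muscle and also active in neurons, showed differences between replicates larger than those between siRNAs. The locus at 5q14.3 had 8.367 and 17.01 kb under peaks in siLSD1 replicates 1 and 2, against 7.282 and 15.38 kb in siCtrl replicates 1 and 2. Both replicates 2 lie high and both replicates 1 low, so the groups overlap. The means were 12.7 ± 6.11 kb after siLSD1 and 11.3 ± 5.72 kb after siCtrl (SD, n = 2 each; exact permutation p = 0.667). Of its 13 regions, 5 were found in 1 library and 5 in 2 libraries.

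The first start of MEF2C, whose upstream sequence is printed above, was marked in replicates 2 only. The region chr5:88199385-88200506 measured 0 and 1.00 kb in siLSD1 replicates 1 and 2, against 0 and 1.04 kb in siCtrl replicates 1 and 2. The regions starting 14.0, 69.5 and 124.4 kb into the gene were likewise listed in replicate 2 of both siRNAs and in neither replicate 1. Both pooled lists hold a peak at the first start, with scores of 180.28 in the siLSD1 list and 291.32 in the siCtrl list.

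The 3 MEF2C regions marked in every library all lie at internal starts of the gene. They span 18.9 to 22.9 kb, 76.2 to 79.7 kb and 116.9 to 119.7 kb from the 5′ end, and RefSeq starts stand 19.6 and 20.9 kb, 76.9 kb and 118.6 kb from the gene's 5′ end, with 2 further starts at 79.8 and 80.2 kb just beyond the second region. Distances were taken within each build and no coordinate was converted, so the match is to about 1 kb. The region at the CpG-rich start, chr5:88177059-88181053, measured 2.99 and 3.67 kb in the siLSD1 libraries, against 3.65 and 3.66 kb in the siCtrl libraries. The middle region, chr5:88120350-88123812, measured 2.64 and 3.27 kb in the siLSD1 libraries, against 1.57 and 2.57 kb in the siCtrl libraries. It is broader in both siLSD1 libraries, by 0.882 kb on average, yet 2.64 and 2.57 kb are nearly alike (limma over merged regions, adjusted p = 0.569). In the genome, 1616 common regions were broader in both siLSD1 libraries by at least as much, this one included. The difference of the region was 0.381 kb without siCtrl replicate 1, 0.564 kb without siLSD1 replicate 2 and 1.38 kb without siCtrl replicate 2. With the upper 50% by score it was 1.64 kb, but only siLSD1 replicate 2 then kept a peak there. The highest peaks of the other libraries stood at percentiles 37.9 (siLSD1 replicate 1), 45.4 and 49.7 (siCtrl replicates 1 and 2). That value therefore rests on 1 library and compares no breadths. The last region, chr5:88080320-88083055, measured 2.01 and 2.74 kb in the siLSD1 libraries, against 2.06 and 2.71 kb in the siCtrl libraries, with no difference beyond that between replicates.

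MEF2D, which muscle cells splice into a muscle form late in differentiation, held the region whose breadth differed most between the siRNAs. The locus at 1q22 had 18.63 and 21.43 kb under peaks in the siLSD1 libraries, against 20.31 and 21.62 kb in the siCtrl libraries, and these values overlap (difference -0.934 kb, exact permutation p = 0.667). Its 5′ end was covered in full or nearly so, with 3.926 and 4 kb of the 4-kb window in the siLSD1 libraries, against 4 and 4 kb in the siCtrl libraries. The region over it, chr1:156465352-156476373, is 11.0 kb wide, broader than 99.5% of all common regions, and measured 10.7 and 10.9 kb in the siLSD1 libraries, against 10.8 and 10.7 kb in the siCtrl libraries.

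The next region of MEF2D, chr1:156457585-156465032, lies 6.0 to 13.4 kb inside the gene. It measured 3.81 and 4.02 kb in the siLSD1 libraries, against 7.25 and 7.45 kb in the siCtrl libraries. Both siLSD1 libraries lack the end that faces the promoter: their peaks ran from 9.1 to 12.9 kb in replicate 1 and from 8.9 to 12.9 kb in replicate 2, while the siCtrl peaks ran from 6.0 to 13.2 kb in replicate 1 and from 6.0 to 13.4 kb in replicate 2. Means were 3.92 ± 0.153 kb after siLSD1 and 7.35 ± 0.136 kb after siCtrl (SD, n = 2 each), a ratio of 0.533. Only 6 of 26653 common regions of the genome were narrower in both siLSD1 than in both siCtrl libraries by a mean difference at least as large, this one included. Most common regions are too narrow to lose this much: their median width is 2.79 kb, and this region stands at width percentile 97.2. In the 10-kb window chr1:156460001-156470000, covered length averaged 6.60 kb after siLSD1 and 9.60 kb after siCtrl, a difference of -2.99 ± 0.275 kb (SE), with an unadjusted p of 0.000936 and an adjusted p of 0.129 in limma over 43372 windows. The difference of the region was -3.33 to -3.54 kb when any 1 library was left out.

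In the pooled lists this MEF2D region differed less. The pooled siLSD1 peak ran from 6.6 to 13.1 kb, 6.44 kb long, and the pooled siCtrl peak from 5.9 to 13.5 kb, 7.51 kb long. The printed MEF2D start, at 10.1 kb in GRCh38 distances, lies in the stretch that every list marked. Beyond the 3′ end, the region chr1:156425328-156428646 measured 2.84 and 3.31 kb in the siLSD1 libraries, against 2.25 and 2.37 kb in the siCtrl libraries. It was broader in both siLSD1 libraries, by 0.769 kb, as were 1998 common regions of the genome by at least as much, this one included. The window of this region, chr1:156420001-156430000, had an unadjusted p of 0.0447 and an adjusted p of 0.325 in limma. Scaled to covered length, the difference of the region was 0.176 kb. No other gene of the table lies within 20 kb of MEF2D.

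TBX2, at 17q23.2, had less sequence under peaks in the mean after siLSD1, with groups that overlapped. The locus had 10.29 and 11.43 kb in the siLSD1 libraries, against 11.3 and 14.06 kb in the siCtrl libraries. The difference of -1.82 kb (exact permutation p = 0.667) was -0.439 kb without siCtrl replicate 2. Nearly all of it lies over the 5′ end, in the region chr17:59473651-59482067, which measured 4.81 and 5.89 kb in the siLSD1 libraries, against 5.99 and 8.42 kb in the siCtrl libraries. Both siLSD1 values are below both siCtrl values, but 5.89 and 5.99 kb differ little and the highest value is that of siCtrl replicate 2, the only library whose peak reached 5.1 kb into the gene. The mean difference was -1.85 kb, with an adjusted p of 0.590 in limma over merged regions, and 47 common regions of the genome were narrower in both siLSD1 libraries by at least this much. The pooled lists differed in the same direction, with peaks from -3.0 to 3.1 kb in the siLSD1 list and from -3.4 to 5.1 kb in the siCtrl list.

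The centre of the TBX2 promoter and the 3′ side of the gene were marked alike. Within 2 kb of the 5′ end, 3.795 and 4 kb were covered in the siLSD1 libraries, against 3.76 and 4 kb in the siCtrl libraries. The region over the 3′ end, chr17:59485518-59487965, measured 2.17 and 2.24 kb in the siLSD1 libraries, against 2.27 and 2.29 kb in the siCtrl libraries. It counts as narrower in both, with a difference of -0.0805 kb only, and the difference was 1.06 kb when the upper 50% of each list by score were used. That cut left out the peak of siCtrl replicate 1, at percentile 46.5. The region at 11.0 to 14.4 kb measured 3.31 kb in both siLSD1 libraries, against 3.04 and 3.35 kb in the siCtrl libraries.

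TBX3, at 12q24.21, the relative of TBX2, had overlapping groups within a narrow range. It had 6.843 and 7.22 kb under peaks in the siLSD1 libraries, against 7.501 and 7.168 kb in the siCtrl libraries (difference -0.303 kb, exact permutation p = 0.667). The region over its 5′ end, chr12:115118422-115123739, measured 4.88 and 5.11 kb in the siLSD1 libraries, against 5.24 and 5.08 kb in the siCtrl libraries. The region beyond the 3′ end, chr12:115105273-115107597, measured 1.96 and 2.11 kb in the siLSD1 libraries, against 2.27 and 2.09 kb in the siCtrl libraries. In both regions the groups overlapped. The peaks of TBX3 ranked high in every library, between percentiles 76.0 and 95.2 of the scores in the siLSD1 lists and between 81.1 and 87.8 in the siCtrl lists.

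SOX8, at 16p13.3, lies in the broadest marked region of the set. The region chr16:1023187-1037166 is 14.0 kb wide, broader than 99.7% of all common regions, and runs from -7.8 to 6.2 kb around the 5′ end, over the whole gene interval. It measured 12.9 and 12.5 kb in the siLSD1 libraries, against 13.8 and 13.6 kb in the siCtrl libraries. Both siLSD1 values lie below both siCtrl values, with means of 12.7 ± 0.261 kb after siLSD1 and 13.7 ± 0.153 kb after siCtrl (SD, n = 2 each). The difference of -0.968 kb had an adjusted p of 0.505 in limma over merged regions. In the genome, 252 common regions were narrower in both siLSD1 libraries by at least as much, this one included. Scaled to covered length, the difference was -4.01 kb. The region was nearly full in every library, so this scaled value follows mainly from the library totals and shows no stronger narrowing. The siLSD1 peaks were interrupted from -5.4 to -5.0 kb in replicate 1 and from -5.2 to -5.1 kb in replicate 2, while the siCtrl peaks were interrupted from 0.6 to 0.7 kb in replicate 1 and nowhere in replicate 2. The highest score of the region stood at percentiles 99.6 and 89.9 of the siLSD1 lists and 96.9 and 89.5 of the siCtrl lists.

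Upstream of SOX8 a second region, chr16:1018258-1022997, was also narrower in both siLSD1 libraries, with 2.55 and 2.90 kb against 4.60 and 3.57 kb in the siCtrl libraries. The mean difference was -1.36 kb, with an adjusted p of 0.308 in limma over merged regions. In the genome, 116 common regions were narrower in both siLSD1 libraries by at least as much, this one included. Without siCtrl replicate 1 the difference was -0.85 kb. Downstream, the region chr16:1051554-1054922 was broader in both siLSD1 libraries, with 2.44 and 2.94 kb against 1.73 and 1.83 kb in the siCtrl libraries. In the genome, 1536 common regions were broader by at least as much, this one included. The window of this region, chr16:1050001-1060000, had an unadjusted p of 0.0299 and an adjusted p of 0.252 in limma. Among the upper 50% of peaks by score the difference was -0.31 kb, where the cut left out the siLSD1 replicate 1 peak, at percentile 34.7. Summed over the locus, 21.49 and 20.95 kb were under peaks in the siLSD1 libraries, against 21.74 and 22.09 kb in the siCtrl libraries. These groups do not overlap, at 21.2 ± 0.383 kb after siLSD1 and 21.9 ± 0.246 kb after siCtrl (SD, n = 2 each; difference -0.702 kb, exact permutation p = 0.333, adjusted p = 0.667). The difference was -5.59 kb with scaling to covered length and -3.42 kb with the upper 50% by score, and the groups overlapped without widening (-0.277 kb, exact permutation p = 1.0) and with equal numbers of peaks (-0.408 kb, exact permutation p = 0.667). The score cut left out siLSD1 replicate 1 peaks of 1.79, 1.80 and 2.44 kb and a siLSD1 replicate 2 peak of 0.623 kb. From the siCtrl libraries it left out only a replicate 2 peak of 1.21 kb. Here too the scaled value follows mainly from the library totals. LMF1 and CEROX1 are among the neighbours of SOX8 in the gene table, and the outer regions were not assigned to a gene.

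**Figure D3:**
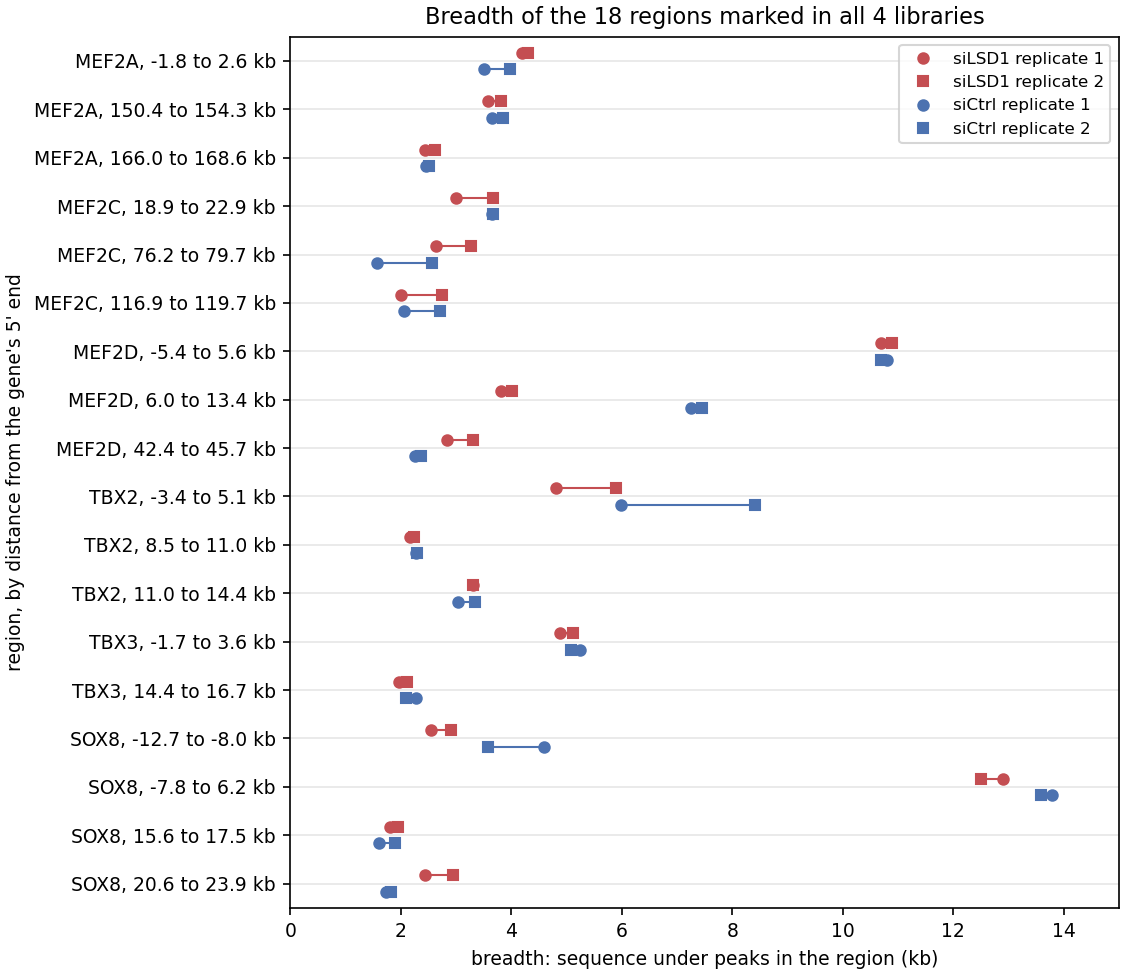
Breadth in kb (horizontal axis) of each of the 18 regions that all 4 libraries marked, with the siLSD1 libraries drawn above the siCtrl libraries, circles for replicate 1, squares for replicate 2 and a line joining the replicates. The widest gap between the groups is at MEF2D, 6.0 to 13.4 kb from the 5′ end, with 3.81 and 4.02 kb in the siLSD1 libraries and 7.25 and 7.45 kb in the siCtrl libraries.

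Over the 18 common regions, 4 were broader in both siLSD1 than in both siCtrl libraries, or 22.2%, where the background is 30.3% of 26653 common regions. The 5 that were narrower make 27.8%, where the background is 9.62%. Of these, the 2 at SOX8 are direct neighbours, and the TBX2 region over the 3′ end differed by only -0.0805 kb. With gaps up to 1000 bp joined, 3 of 15 were narrower and 4 broader, where the backgrounds are 9.28% and 31.4%. The median difference in breadth was -0.0323 kb over the 18 regions and 0.126 kb over all common regions. By family, 3 of the 9 common regions of the MEF2 loci were broader and 1 was narrower, and 1 of the 9 of the T-box and SOX8 loci was broader and 4 were narrower. These counts describe few regions and were not tested. Scaling every library to the same covered length shifted the median log2 ratio of breadth over all common regions by -0.313, and then 14 of the 18 were narrower and 1 broader, beside 48.4% narrower and 5.57% broader of all common regions.

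Across all 10-kb windows of the genome, limma called 0 of 43372 at an adjusted p under 0.05 (0%), and so 0 of the 29 tested in these loci. At an unadjusted p under 0.05, 12.4% of all windows were higher after siLSD1 and 1.94% lower. In the 6 loci 2 windows were higher, those downstream of MEF2D and SOX8, and 1 was lower, that of the MEF2D region. Relative to the mean of a locus over the 4 libraries, MEF2A stood at 1.17 and 1.14 in the siLSD1 libraries and 0.70 and 0.991 in the siCtrl libraries, and MEF2C at 0.697 and 1.42 in the siLSD1 libraries and 0.606 and 1.28 in the siCtrl libraries. TBX3 stayed between 0.953 and 1.04 and SOX8 between 0.971 and 1.02. MEF2D stood at 0.909 and 1.05 in the siLSD1 libraries and 0.991 and 1.05 in the siCtrl libraries, and TBX2 at 0.874 and 0.971 in the siLSD1 libraries and 0.96 and 1.19 in the siCtrl libraries. MEF2A alone had both siLSD1 values above both siCtrl values, and SOX8 alone had both below. A share of 0.333 of all ways to label 2 libraries against 2 separates the groups this fully, so chance was not excluded. Covered length of the genome as a whole also lay higher in both siLSD1 than in both siCtrl libraries.

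The pooled lists, from the replicates that the submitters combined, were compared peak by peak. Of the 35 pooled siLSD1 peaks of these loci, 8 met no pooled siCtrl peak, where the background is 27.0% of all pooled siLSD1 peaks. Of the 27 pooled siCtrl peaks, 1 met no pooled siLSD1 peak, where the background is 8.86%. That one lies 96.6 to 97.4 kb into MEF2A and has a score of 51.84, near the minimum of 50 in its list, and siLSD1 replicate 2 holds a peak there. Of the 8, those at MEF2A, MEF2C and MEF2D had scores between 66.9 and 141.61, at or below percentile 35.3 of the list. None of these met a peak in both siLSD1 libraries. That at 117.1 to 118.2 kb of MEF2A met no library peak, and that at 124.3 to 125.6 kb of MEF2C met a peak of siCtrl replicate 2.

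The remaining pair of siLSD1-only peaks lies at SOX8, where the library lists differ from the pooled ones. In the pooled siLSD1 list, peaks at chr16:1017788-1021840 and chr16:1023335-1037163 had scores of 579.15 and 2672.99. The pooled siCtrl list has no peak from -15.8 to 15.6 kb around the SOX8 5′ end, and covers 5.21 kb of the locus, against 25.02 kb in the pooled siLSD1 list. Both siCtrl libraries that were pooled list the 2 regions, at 4.60 and 3.57 kb upstream and 13.8 and 13.6 kb over the gene, broader than in either siLSD1 library. Of 26653 regions marked in all 4 libraries, 32 (0.12%) have no pooled siCtrl peak and 45 (0.169%) have no pooled siLSD1 peak, and 2 of those 32 are these SOX8 regions. No peak number is missing from the pooled siCtrl list. The pooled lists thus count 2 siLSD1-only peaks at SOX8 where all 4 libraries were marked.

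**Figure D4:**
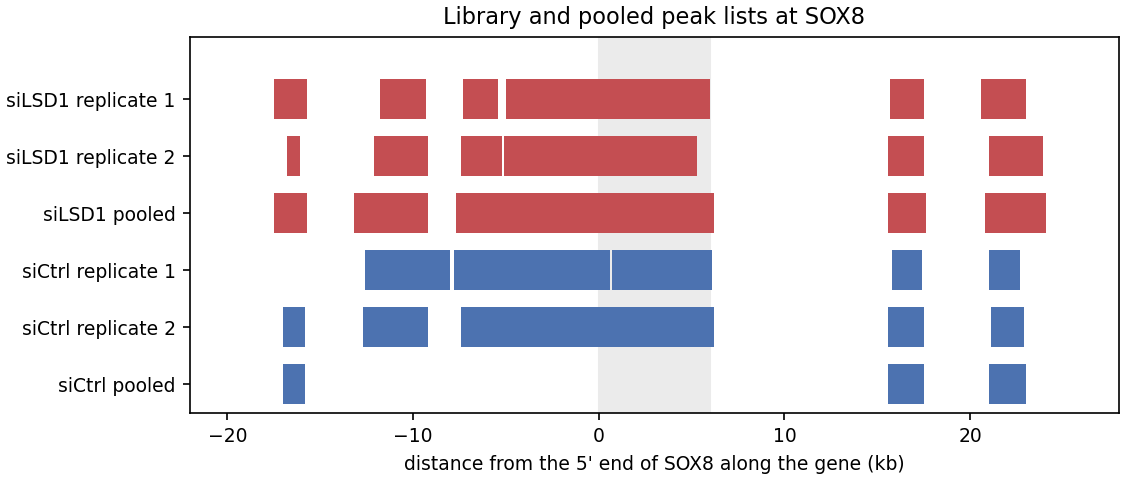
Peaks at SOX8 in the library and pooled lists, by distance in kb from the 5′ end, with the siLSD1 lists above the siCtrl lists and the gene interval in grey. Both siCtrl libraries have peaks over most of the stretch from -12.7 to 6.2 kb that the pooled siCtrl list leaves empty. Gaps lie from -8.0 to -7.8 kb and from 0.6 to 0.7 kb in replicate 1, and from -9.2 to -7.4 kb in replicate 2.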

How the data were processed

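H3K4me2 ChIP-seq was analysed in 4 libraries of RD cells, 2 per siRNA, with 2 pooled lists. Per the submitters' processing notes, reads were aligned with Bowtie to hg19. The deposited peaks are named after MACS; its settings are not given in any source used. Each peak of the authors has a position and a score, with a minimum of 50 or 50.01 per list, used only to rank peaks within a list. Read depth is unknown. Peaks on chromosomes 1 to 22 and X were kept, and coordinates count from 1.

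The loci and 5′ ends come from intervals rounded to 1 kb, with the strand of TBX2, TBX3 and SOX8 taken from general knowledge. Members, lists and tests were chosen with earlier results of these data known. Covered length was compared by two-sided exact permutation tests, and per 10-kb window with at least 0.5 kb in at least 2 libraries by limma 3.58.1 (trend, robust; R 4.3.3), Benjamini-Hochberg adjusted over all windows. Scripts were tested on simulated data. The regions named are, per locus, the one at the 5′ end, the widest, those gained or lost and those with the largest difference in each direction, plus every window with an unadjusted p under 0.05; other regions were named after their values were seen. Alternatives were equal numbers of peaks (33878 per library list, 45219 per pooled list), the upper 50% by score, scaling to covered length, other widths, gaps and overlaps, a replicate block, quantile normalization and leaving out each library. RefSeq tables gave promoter windows and gene neighbours by name only. A wider list of MEF2, T-box, SOX and muscle genes was not used here, as no hg19 annotation was at hand. Other steps ran in Python 3.11.15 (pandas 2.3.3, numpy 2.4.6, scipy 1.17.1).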

Additional observations from a re-analysis of the deposited data

How the results depend on the processing

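Of the main results, 149 recomputed values kept their direction or size, 15 changed sign and 18 moved. Covered kb (siLSD1 minus siCtrl): leaving out 1 library gave -2.96 to 5.68 at MEF2C and -2.33 to 0.467 at MEF2D, and scaling to covered length gave 1.55 at MEF2A, -0.821 at MEF2C, -5.56 at MEF2D, -4.33 at TBX2, -1.98 at TBX3 and -5.59 at SOX8, beside 4.24, 1.36, -0.934, -1.82, -0.303 and -0.702 unscaled, in the same order. At the 5′ ends, scaling gave -0.48 at MEF2A, -0.851 at TBX2, -0.82 at TBX3 and -0.841 at SOX8, 5 kb on each side gave -1.82 at TBX2 and -0.165 at TBX3, and leaving out 1 library gave -0.537 to 0.502 at MEF2C, -0.103 to 0.138 at TBX2 and -0.0585 to 0.0915 at TBX3. Scaling multiplied covered length by 0.943 and 0.875 in siLSD1 replicates 1 and 2, and by 1.3 and 0.971 in siCtrl replicates 1 and 2. A window covered in full in every library turns negative by these factors alone. The scaled 5′ values therefore cannot show a narrower mark. Gained regions numbered 0 with equal numbers of peaks, beside 1376 genome-wide, and 1 to 5 with 1 library left out, beside 4616 to 11055. Lost regions numbered 0 to 2 with 1 library left out, beside 1362 to 4120 genome-wide, and common regions 11 without widening. Broader common regions numbered 2 of 13 with the upper 50% by score and 2 of 11 without widening, beside 28.7% and 30.3% genome-wide. They numbered 1 with scaling, beside 5.57%, and 3 to 9 with 1 library left out, beside 37.8% to 63.1%. Narrower ones numbered 3 of 15 with gaps up to 1000 bp, beside 9.28% genome-wide, and 14 with scaling, beside 48.4%. With 1 library left out, narrower ones numbered 5 to 12, beside 14.1% to 30.7% genome-wide. The region at the MEF2A 5′ end differed by -0.344 kb with scaling, and with the upper 50% by score the TBX2 3′ region by 1.06 kb and the SOX8 downstream region by -0.31 kb. In each of these TBX2 and SOX8 regions the score cut left out the peak of 1 library. Pooled siCtrl-only peaks numbered 2 with equal numbers and 0 with the upper 50%, pooled siLSD1-only peaks 5 with the upper 50%. Quantile normalization called 9 windows genome-wide and 0 in the loci. With the replicate block, limma called 0 windows genome-wide and 0 in the loci, and the difference between replicates 1 and 2 correlated at r = 0.15 between the siRNAs, over 2 pairs that share only a number. The cause of these changes was not tested. With 2 libraries per siRNA and no read depth, a region missing from a short list cannot be told apart from one below its threshold.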

Other observations

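Some boundaries in the pooled siCtrl list are those of 1 library. The pooled siCtrl peak over the TBX2 5′ end, chr17:59473651-59482067, has the same start and end as the peak of siCtrl replicate 2. Of 27 pooled siCtrl peaks in the 6 loci, 3 share both ends with a peak of siCtrl replicate 2 and 0 with one of siCtrl replicate 1, beside 4.60% and 0.517% of all 45219 pooled siCtrl peaks. Of 35 pooled siLSD1 peaks in the loci, 0 share both ends with a peak of either siLSD1 library, beside 1.22% for replicate 1 and 2.92% for replicate 2 of all 56860.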
